A study of Mus musculus with 18 samples.

Results

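Alcohol and aldehyde dehydrogenases were followed in mouse liver through 10 genes taken by symbol from a table of 54752 genes: Adh1, Adh4, Adh5, Aldh2, Aldh1b1, Aldh1a1, Aldh3a2, Aldh1l1, Aldh6a1 and Aldh8a1. All 10 passed the filter on low counts. At week 22, long RNA was counted in 18 livers, 6 per group. CCl4_PTH mice had carbon tetrachloride (CCl4) injected into the peritoneum 2 times a week and PTH by gavage every day. CCl4 mice had the same injections, with distilled water by gavage. Control mice had olive oil injections and distilled water by gavage. All were male C57BL/6 mice aged 6 weeks at the start, 15 per group, assigned at random, and 6 of each group were selected for sequencing. CCl4 is a solvent that cytochrome P450 enzymes of the liver turn into a radical which injures hepatocytes, and the submitters call the injected mice a liver cancer model. PTH was read as Pien Tze Huang, a traditional Chinese medicine that one label also writes as PZH. The sources used here state neither whether the sampled tissue was tumour nor the time since the last injection.

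Alcohol dehydrogenases oxidise alcohols to aldehydes or ketones with NAD, and aldehyde dehydrogenases oxidise aldehydes to acids. In liver the pair clears ethanol by way of acetaldehyde to acetate. Other members of the aldehyde dehydrogenase family work on retinal, on fatty aldehydes, and on semialdehydes or formyl groups that arise when amino acids and folates are broken down. Most are abundant in hepatocytes, where mitochondria, cytosol and endoplasmic reticulum each hold different members.

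In the GENCODE M21 annotation of GRCm38, 3 of the genes lie near each other on the plus strand of chromosome 3: Adh1 (chr3:138260991-138290698), Adh4 (chr3:138415466-138430892) and Adh5 (chr3:138443093-138455499). On the plus strand also lie Aldh1a1 (chr19:20492715-20643465), Aldh1b1 (chr4:45799022-45804604), Aldh1l1 (chr6:90486427-90600203) and Aldh8a1 (chr10:21377291-21396585). On the minus strand lie Aldh2 (chr5:121566027-121593824), Aldh3a2 (chr11:61223417-61267464) and Aldh6a1 (chr12:84430717-84451004). All are protein-coding. Antisense genes overlap Adh1 (Gm16559), Aldh2 (Gm42879), Aldh1l1 (Gm15756) and Aldh6a1 (Bbof1), and their counts were at most 2.0% of the count of their partner in any library. Of all 50-base stretches of Aldh1a1 transcripts, 3.06% also occur in Aldh1a7, a close copy, so a small part of the reads of these 2 genes could be exchanged. Counted on either strand, the share was larger for genes with an antisense partner. It was 16.07% for Aldh6a1 with Bbof1 and 8.8% for Aldh1l1 with Gm15756, and reads there could be exchanged too if strand was not used.

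Promoter sequence was taken from RefSeq (GRCm38.p6) for 9 of the 10 genes, not Aldh2, as the 250 bases before each annotated start. The windows of 4 genes are shown because their RNA took different courses: Adh4, Aldh6a1 and Aldh8a1 were lower after CCl4 and higher again with PTH, and Aldh1b1 was higher after CCl4 with and without PTH. Capitals mark matches to the motifs searched, which are named after the sequences. Each is written 5′ to 3′ on the strand of its gene. GENCODE places the first start of Adh4 and of Aldh8a1 inside the last bases of these windows.
Adh4, chr3:138415247-138415496, plus strand: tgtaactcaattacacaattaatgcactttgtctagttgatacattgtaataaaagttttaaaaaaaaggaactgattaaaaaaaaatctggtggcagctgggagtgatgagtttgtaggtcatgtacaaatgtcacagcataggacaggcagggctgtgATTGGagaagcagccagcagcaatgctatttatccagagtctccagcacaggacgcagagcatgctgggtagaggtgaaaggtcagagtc
Aldh6a1, chr12:84451025-84451274, minus strand: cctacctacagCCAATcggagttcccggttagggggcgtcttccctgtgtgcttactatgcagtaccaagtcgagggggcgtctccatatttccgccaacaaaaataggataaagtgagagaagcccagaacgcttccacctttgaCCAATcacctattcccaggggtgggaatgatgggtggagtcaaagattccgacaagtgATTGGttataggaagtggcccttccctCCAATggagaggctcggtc
Aldh8a1, chr10:21377050-21377299, plus strand: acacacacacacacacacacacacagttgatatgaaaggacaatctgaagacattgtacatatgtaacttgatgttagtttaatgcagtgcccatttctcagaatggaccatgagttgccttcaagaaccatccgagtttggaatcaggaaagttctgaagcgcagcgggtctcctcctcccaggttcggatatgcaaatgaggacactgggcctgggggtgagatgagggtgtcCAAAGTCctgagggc
Aldh1b1, chr4:45798772-45799021, plus strand: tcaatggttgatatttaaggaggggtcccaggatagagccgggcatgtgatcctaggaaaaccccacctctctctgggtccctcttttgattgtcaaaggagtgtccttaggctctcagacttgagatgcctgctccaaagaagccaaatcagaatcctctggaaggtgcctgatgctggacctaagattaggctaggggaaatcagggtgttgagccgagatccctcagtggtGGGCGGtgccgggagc

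The search covered both strands for the core promoter element TATAAA, the CCAAT motif bound by NF-Y, the Sp-family motif GGGCGG, part of the HNF1 motif (GTTAAT), the HNF4 core CAAAGTC, the C/EBP motif TTGCNNAA and the antioxidant response element TGACNNNGC. The Adh4 window held CCAAT on the opposite strand, 90 to 86 bases before the start, and its GC content was 41.6% with 1 CpG, against medians of 52.4% and 6 over 32536 windows. The Aldh6a1 window shown, 1 of its 2, held 4 matches to CCAAT and 9 CpG. The Aldh8a1 window held the HNF4 core 15 to 9 bases before the start, and the Aldh1b1 window GGGCGG 16 to 11 bases before it. Over the 9 genes, CCAAT was found in 5 (33.81% of all windows), GGGCGG in 4 (32.97%), CAAAGTC in 2 (3.87%), TTGCNNAA in 2 (9.57%) and TATAAA in 1 (12.31%). GTTAAT and TGACNNNGC were found in 0 of the 9, against 6.47% and 10.21% of all windows. Adh5, Aldh1a1 and Aldh6a1 had 2 windows each, and a gene was counted if any of its windows matched. The percentages count single windows, so the 2 measures are not alike. A match describes the letters only, and binding was not measured here.

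Libraries held 67229863 to 118877267 counts, of which 31.5% to 55.8% fell on ribosomal RNA loci, and single genes of the 10 had 408 to 100127 counts per library. Levels below are CPM, counts relative to the library size after TMM scaling. CCl4_PTH libraries had 102.6 ± 16.1 M counts, against 76.7 ± 6.49 M in CCl4 libraries (SD, n = 6 each, two-sided exact permutation p = 0.01082, adjusted p = 0.06492 over 6 tests). Hepatocyte markers were abundant in every library (9 genes, summed level at least 24418 CPM), and albumin (Alb) averaged 26453 ± 3334 CPM in CCl4_PTH, 25049 ± 9868 in CCl4 and 36447 ± 5247 in control livers (SD, n = 6 each). Some libraries stood apart. CCl4_PTH 1 was the lowest of its group in 9 of the 10 genes, and its 10 neutrophil markers summed to 1661 CPM, against 30.0 to 40.7 CPM in the other 5 libraries of its group. Its 10 pericentral hepatocyte markers summed to 1416 CPM, against 2526 to 3583 CPM in those 5. Its 9 hepatocyte markers summed to 65262 CPM, the highest of its group, against 39848 to 52797 CPM in those 5. Controls 1 and 8 had lower pericentral sums (4803 and 5370 CPM) than the other 4 controls (6582 to 8345 CPM). By the group means in this text, Cyp2e1 made up a large part of the pericentral sums, and Alb of the hepatocyte sums. A sum thus follows the most abundant genes of its list and does not show that each marker moved.

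In control livers the order of levels per length (CPM per kb of exon, mean ± SD, n = 6) began with Adh1 at 343 ± 58.1, Aldh2 at 184 ± 15.9, Aldh1a1 at 145 ± 27.0 and Aldh1l1 at 115 ± 39.6. Aldh3a2 (70.4 ± 25.6) and Adh4 (65.2 ± 4.62) followed, then Aldh6a1 (44.7 ± 2.64), Aldh8a1 (33.5 ± 1.18) and Adh5 (28.1 ± 3.29), with Aldh1b1 last at 8.22 ± 4.95. Every control library of the first gene was above every one of the second for 4 neighbours in this order: Adh1 over Aldh2, Adh4 over Aldh6a1, Aldh6a1 over Aldh8a1, and Adh5 over Aldh1b1. The other 5 neighbouring pairs overlapped. In both injected groups Adh1 stayed first in level per length, at 265 ± 88.8 CPM per kb in CCl4_PTH and 166 ± 62.0 in CCl4 livers, and all neighbours overlapped. Aldh1l1 ranked second in CCl4_PTH livers (141 ± 26.4 CPM per kb), and Aldh1b1 had the rank 5 in CCl4 livers (27.2 ± 12.7 CPM per kb).

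**Figure D1:**
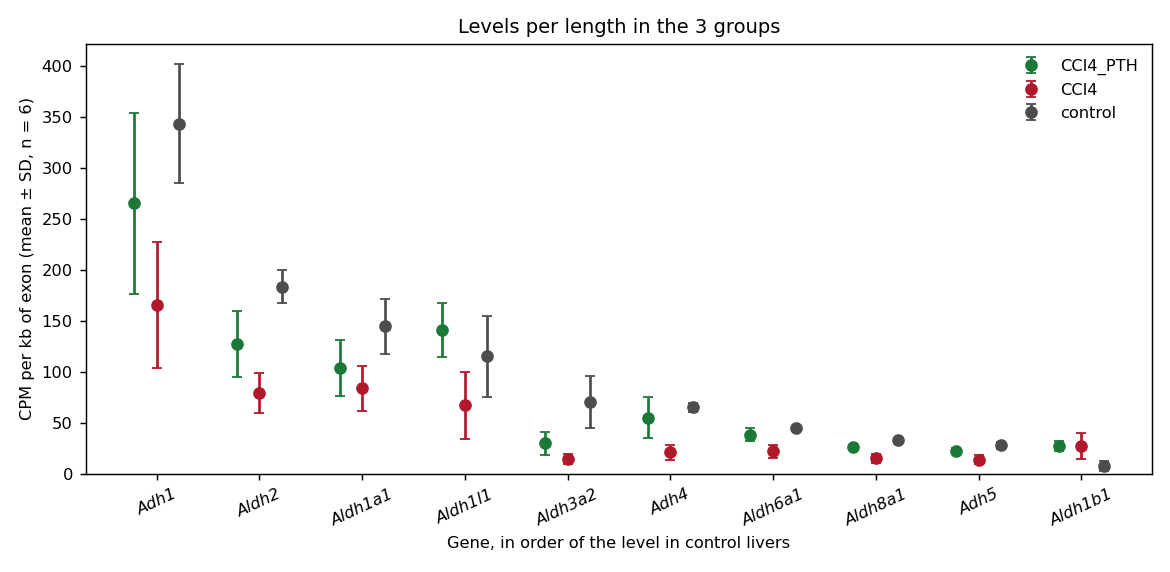
Level per length of each gene (vertical axis, CPM per kb of exon, mean ± SD, n = 6 per group) in CCl4_PTH, CCl4 and control livers, with genes along the horizontal axis in the order of the control level. Adh1 leads in all 3 groups (265, 166 and 343 CPM per kb), and Aldh1b1, last in control livers, is the gene whose control mean is below both injected groups.

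CCl4 livers had less RNA of 9 of the 10 dehydrogenases than control livers, and more of Aldh1b1. The lower genes had different roles, among them ethanol oxidation (Adh1, Aldh2), fatty aldehydes (Aldh3a2), valine (Aldh6a1) and tryptophan breakdown (Aldh8a1). Log2 fold changes of the 9 ran down to -2.26 for Aldh3a2, and the median over the 10 genes was -1.03, against 0.05 over all 21840 genes tested. Of all genes, 47.4% were called in this comparison by edgeR's quasi-likelihood test (adjusted p below 0.05), 26.3% higher and 21.2% lower. Among the 1630 genes with at least 50 CPM on average, a limit chosen after values were seen, 56.7% were lower. In 9 of the 10 genes the 6 CCl4 and the 6 control libraries did not overlap, against 26.1% of all genes, and Aldh1l1 was the exception. With library sizes in place of TMM factors that count was 4 of 10, for Adh4, Aldh2, Aldh3a2 and Aldh1b1, against 25.5% of all genes. In that setting 6 of the 10 were called lower, not including Adh1, Aldh1a1 and Aldh1l1, where 1061 of all 21840 genes were lower. Summed over the 10 genes, the level was 1944 ± 597 CPM in CCl4 livers and 4008 ± 349 CPM in control livers (SD, n = 6 each). In RNA of whole liver, fewer cells of a type and less RNA per cell cannot be told apart.

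With PTH added to CCl4, 7 of the 10 genes were higher than in CCl4 livers, 0 were lower, and Adh1, Aldh1a1 and Aldh1b1 did not pass. Of all genes, 12.1% were called in this comparison, 7.1% higher and 4.95% lower, and 28.9% of the 1630 abundant genes were higher. The median log2 fold change was 0.73 over the 10 genes and -0.03 over all genes. The groups overlapped in 9 of the 10 genes, and in Aldh8a1 all 6 CCl4_PTH libraries were above all 6 CCl4 libraries, where 4.07% of all genes had no overlap. By library size alone all 10 overlapped (2.55% of all genes did not). The summed level was 3169 ± 734 CPM in CCl4_PTH livers, against 1944 ± 597 CPM in CCl4 livers (SD, n = 6 each). The count of 7 was 8 without CCl4_PTH 1, and 5 without CCl4 4, CCl4 7, CCl4_PTH 6 or CCl4_PTH 7 and with library sizes alone. With a block on replicate numbers, which are not known to mark pairs, it was 0. This comparison and the one of CCl4 with control share the CCl4 libraries, so the values of both are given side by side below and not set against each other.

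Between CCl4_PTH and control livers, 1 gene was higher (Aldh1b1), 2 were lower (Aldh2 and Aldh3a2), and 7 did not pass, where 27.7% of all genes were called, 17.4% higher and 10.3% lower. Among the 1630 genes with at least 50 CPM on average, 7.67% were higher and 23% lower. The median log2 fold change was -0.34 over the 10 genes and 0.04 over all genes. Aldh1b1 and Aldh8a1 were the genes whose 2 groups did not overlap, against 14.5% of all genes, and Aldh8a1 did not pass (adjusted p = 0.08575). By library size alone Aldh1b1 had no overlap and Aldh8a1 did, against 18% of all genes with none. With library sizes in place of TMM factors the median of all genes in this comparison moved to 0.51, and the sign of the fold change of 6 of the 7 genes that did not pass turned round. No direction is therefore given for these genes or for the median of the 10. The remaining gene, Aldh1l1, was then called higher (0.72, adjusted p = 0.04439).

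**Figure D2:**
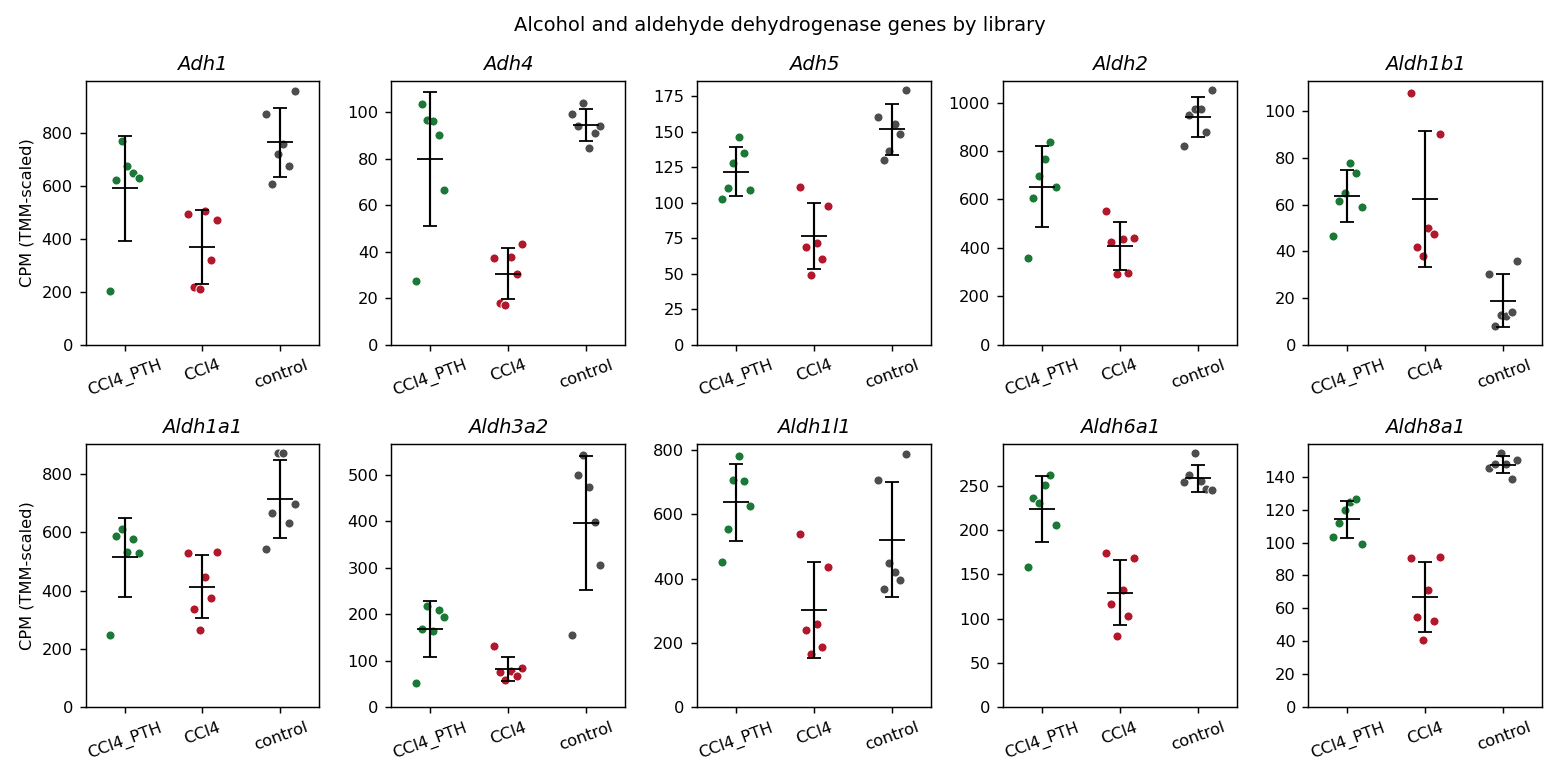
CPM of each gene (vertical axes, linear and starting at 0) in every library, with CCl4_PTH, CCl4 and control libraries from left to right and the mean ± SD of 6 in black. For Aldh8a1 the 3 groups do not overlap in these CPM but do by library size alone, and for Aldh1b1 all control libraries sit below both other groups.

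**Figure D3:**
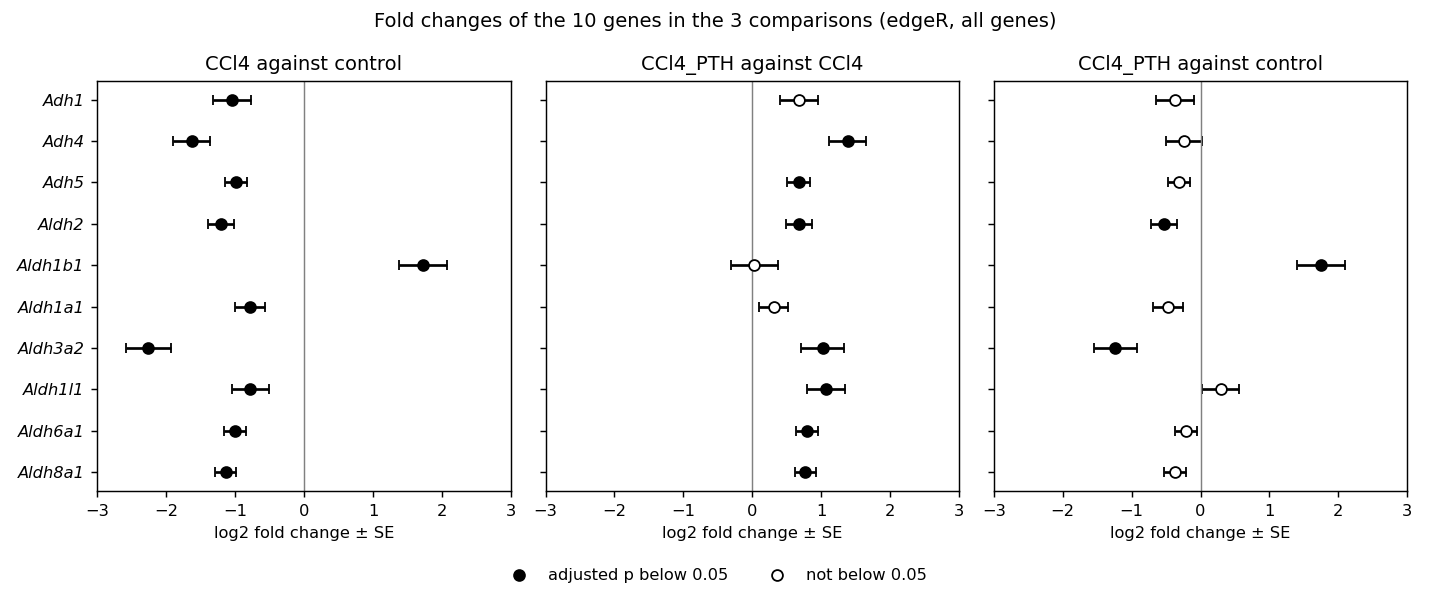
Log2 fold change ± SE of each gene (horizontal axes) in the 3 comparisons, with filled points for adjusted p below 0.05. In the left panel 9 points lie below 0 and Aldh1b1 lies at 1.73; in the middle panel the 7 filled points lie between 0.67 and 1.39; in the right panel Aldh1b1, Aldh2 and Aldh3a2 are filled.

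Adh1 encodes the main ethanol-oxidising enzyme of mouse liver. It had 203 to 773 CPM (median 639) in CCl4_PTH, 209 to 505 CPM (median 396) in CCl4 and 608 to 961 CPM (median 740) in control livers. All CCl4 libraries were below all control libraries, with a log2 fold change of -1.05 ± 0.28 (SE, edgeR adjusted p = 0.004155). CCl4_PTH 1, at 203 CPM, was lower than every CCl4 library, while the other 5 CCl4_PTH libraries, at 622 CPM or more, were above all of them. The fold change of CCl4_PTH over CCl4 was 0.68 ± 0.28 (adjusted p = 0.1149), and without CCl4_PTH 1 it was 0.88 and passed (adjusted p = 0.009677). Scaled by library size only, the value for CCl4 over control was -0.54 and did not pass (adjusted p = 0.09857).

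Adh4, which oxidises retinol and larger alcohols, had the largest rise with PTH among the 10. Its level was 27.3 to 104 CPM (median 93.1) in CCl4_PTH, 17.2 to 43.3 CPM (median 33.6) in CCl4 and 84.7 to 104 CPM (median 94.0) in control livers. In 5 of the 6 CCl4_PTH libraries the level was at least 66 CPM, above every CCl4 library. The log2 fold changes were 1.39 ± 0.27 for CCl4_PTH over CCl4 (adjusted p = 0.004182) and -1.63 ± 0.27 for CCl4 over control (adjusted p = 8.273e-05).

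Adh5 encodes the glutathione-dependent formaldehyde dehydrogenase, which also reduces S-nitrosoglutathione and is found in nearly all tissues. It had 102 to 146 CPM (median 119.3) in CCl4_PTH, 48.9 to 111 CPM (median 70.4) in CCl4 and 130 to 179 CPM (median 152) in control livers. CCl4 libraries were all below control libraries (log2 fold change -0.99 ± 0.16, adjusted p = 7.127e-05), and CCl4_PTH exceeded CCl4 by 0.67 ± 0.16 (adjusted p = 0.01288), with overlap between the highest CCl4 and the lowest CCl4_PTH libraries. Scaled by library size only, the second value was 0.60 and did not pass (adjusted p = 0.0549).

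The 2 mitochondrial enzymes that oxidise acetaldehyde moved in opposite directions after CCl4. Aldh2, which handles most acetaldehyde in liver and also aldehydes from lipid peroxidation, had 358 to 838 CPM (median 675) in CCl4_PTH, 292 to 554 CPM (median 430) in CCl4 and 819 to 1052 CPM (median 960) in control livers. Its log2 fold change was -1.21 ± 0.19 for CCl4 over control (adjusted p = 4.272e-05), with no overlap. It was 0.68 ± 0.19 for CCl4_PTH over CCl4 (adjusted p = 0.02382), a call lost when CCl4 4, CCl4 7, CCl4_PTH 6 or CCl4_PTH 7 was left out (adjusted p 0.0576 to 0.06934), with library sizes alone (0.05106) and with the 2 groups alone (0.06533). For CCl4_PTH over control it was -0.53 ± 0.19 (adjusted p = 0.04333), a call that held in 9 of the 18 fits that each left out 1 library. The 9 in which it was lost left out control 2, 3, 4, 5 or 8 or CCl4_PTH 1, 2, 3 or 8 (adjusted p 0.05474 to 0.07491), and with library sizes alone the value was -0.03 (adjusted p = 0.886).

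Aldh1b1, the mitochondrial relative of Aldh2 that also accepts retinal, was higher in both injected groups. Its 6 libraries had 46.5, 61.4, 64.8, 78.0, 73.4 and 58.8 CPM in CCl4_PTH livers, 108, 41.8, 38.1, 50.0, 47.4 and 90.3 CPM in CCl4 livers, and 30.3, 7.77, 12.9, 12.3, 14.1 and 35.9 CPM in control livers. No control library reached the lowest injected one, and controls 1 and 8 were the 2 highest controls. The log2 fold changes were 1.75 ± 0.35 for CCl4_PTH over control (adjusted p = 0.001312) and 1.73 ± 0.35 for CCl4 over control (adjusted p = 0.0005555). Without controls 1 and 8 they were 2.42 and 2.37. The difference between CCl4_PTH and CCl4 was 0.03 ± 0.34 (adjusted p = 0.9691). Per length, Aldh2 and Aldh1b1 had 128 ± 32.5 and 27.8 ± 4.86 CPM per kb in CCl4_PTH livers, 79.5 ± 19.3 and 27.2 ± 12.7 in CCl4 livers, and 184 ± 15.9 and 8.22 ± 4.95 in control livers (SD, n = 6 each).

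Aldh1a1 encodes the cytosolic retinal dehydrogenase, one of the enzymes that make retinoic acid. It had 247 to 613 CPM (median 555) in CCl4_PTH, 264 to 533 CPM (median 412) in CCl4 and 544 to 873 CPM (median 682) in control livers. CCl4 was below control with no overlap (log2 fold change -0.79 ± 0.21, adjusted p = 0.005019), a call that library sizes alone did not give (-0.21, adjusted p = 0.3848). The values of 0.31 ± 0.21 for CCl4_PTH over CCl4 (adjusted p = 0.3691) and -0.47 ± 0.21 for CCl4_PTH over control (adjusted p = 0.1045) did not pass. With library sizes alone the value for CCl4_PTH over control was 0.0373 (adjusted p = 0.8909), so no direction is given for it.

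Aldh3a2, the fatty aldehyde dehydrogenase of the endoplasmic reticulum, had the largest fall after CCl4 of the 10. It had 52.0 to 218 CPM (median 182) in CCl4_PTH, 59.0 to 132 CPM (median 76.8) in CCl4 and 156 to 542 CPM (median 435) in control livers. Control 1 was the lowest control at 156 CPM, and CCl4 1 the highest CCl4 library at 132 CPM. The log2 fold change was -2.26 ± 0.32 for CCl4 over control (adjusted p = 1.822e-05). It was 1.02 ± 0.31 for CCl4_PTH over CCl4 (adjusted p = 0.03792), and this call held in 8 of the 18 fits that each left out 1 library. It was lost without CCl4 2, 4, 5, 7 or 8 or CCl4_PTH 2, 3, 6, 7 or 8 (adjusted p 0.05004 to 0.09893) and with no filter on low counts (0.05883), and without CCl4_PTH 1 the value was 1.23 (adjusted p = 0.00274). Aldh3a2 remained below control with PTH, at -1.24 ± 0.31 (adjusted p = 0.006777).

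Aldh1l1 encodes the cytosolic formyltetrahydrofolate dehydrogenase, which releases one-carbon units of folate as carbon dioxide. It had 451 to 780 CPM (median 665) in CCl4_PTH, 166 to 538 CPM (median 249) in CCl4 and 368 to 788 CPM (median 434) in control livers. Controls 1 and 8, at 706 and 788 CPM, were well above the other 4 controls, which had 368 to 448 CPM. The fold change of CCl4 over control, -0.78 ± 0.27 on the log2 scale (adjusted p = 0.02531), was not called without both of them (-0.46, adjusted p = 0.1982), nor without control 1, control 8, CCl4 4 or CCl4 7 alone (adjusted p 0.052 to 0.06403), nor with library sizes alone (-0.28, adjusted p = 0.4045). The fold change of CCl4_PTH over CCl4 was 1.07 ± 0.28 (adjusted p = 0.0173) and passed in all 18 fits that each left out 1 library.

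Aldh6a1 and Aldh8a1 varied least among control livers after TMM scaling. Aldh6a1, the mitochondrial methylmalonate semialdehyde dehydrogenase of valine and thymine breakdown, had 158 to 262 CPM (median 233) in CCl4_PTH, 80.6 to 174 CPM (median 125) in CCl4 and 245 to 287 CPM (median 255) in control livers. Its log2 fold changes were 0.79 ± 0.16 for CCl4_PTH over CCl4 (adjusted p = 0.005531) and -1.0 ± 0.16 for CCl4 over control (adjusted p = 6.454e-05).

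Aldh8a1, which oxidises aminomuconate semialdehyde in the kynurenine pathway of tryptophan, had 103, 112, 120, 124, 126 and 99.2 CPM in CCl4_PTH livers, 90.7, 54.8, 41.0, 71.0, 52.1 and 91.3 CPM in CCl4 livers, and 145, 148, 154, 147, 139 and 150 CPM in control livers. In these CPM no 2 groups overlapped. By library size alone the range in CCl4_PTH livers (108 to 141 CPM) overlapped those in CCl4 livers (59.6 to 109 CPM) and in control livers (96.2 to 150 CPM). The log2 fold changes were 0.77 ± 0.16 for CCl4_PTH over CCl4 (adjusted p = 0.005032) and -1.14 ± 0.16 for CCl4 over control (adjusted p = 1.11e-05). The coefficient of variation was 9.79% in CCl4_PTH, 31.5% in CCl4 and 3.53% in control livers.

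Part of the order of the 6 CCl4 livers was common to the genes and part of it moved with the scaling. CCl4 1 and 8 were among the 3 highest in 10 of the 10 genes, both with TMM factors and by library size alone. CCl4 5 was among the 3 highest in 10 of 10 with TMM factors and in 1 by library size alone, and CCl4 4 was the lowest in 10 and in 4. The TMM factor was lowest in CCl4 5 (0.95) and highest in CCl4 4 (1.46). Hepatocyte marker sums were 47408, 58478 and 56970 CPM in CCl4 1, 5 and 8, and 34163, 24418 and 36698 CPM in CCl4 2, 4 and 7. Macrophage marker sums were 539, 450 and 473 CPM in CCl4 1, 5 and 8 and 625, 1022 and 899 CPM in CCl4 2, 4 and 7. The part of cell makeup in the levels of the 10 genes was not tested. Among the controls, controls 1 and 8 were the 2 highest in Aldh1b1 and Aldh1l1 and the 2 lowest in Aldh3a2.

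**Figure D4:**
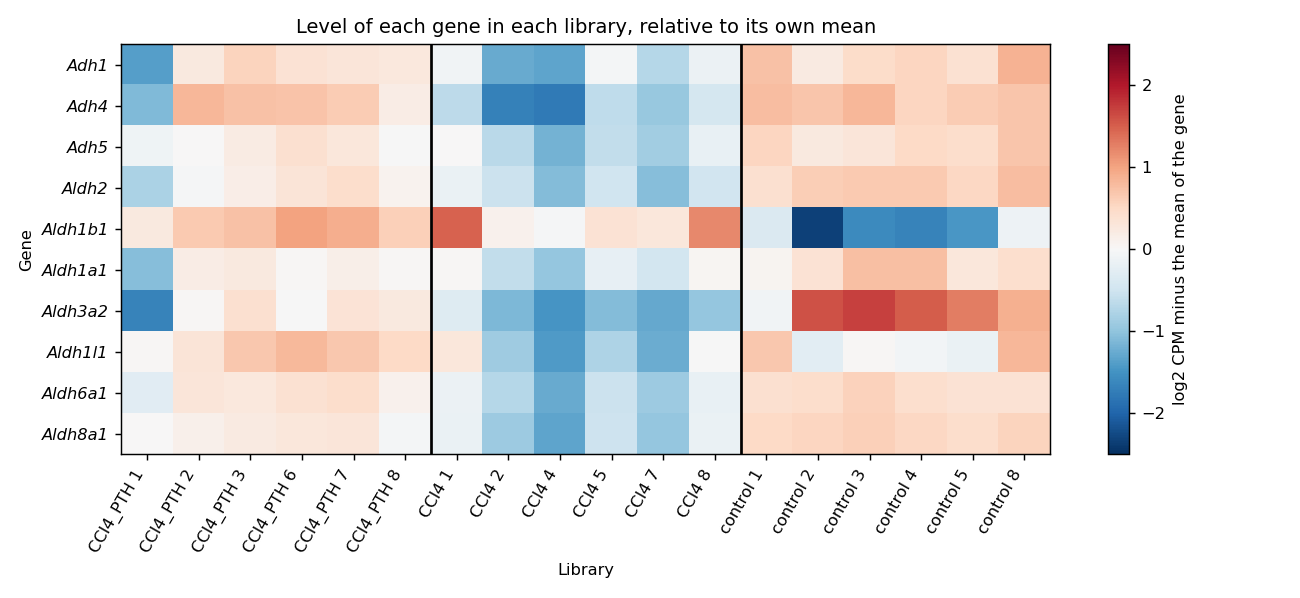
Log2 CPM of each gene in each library minus the mean of that gene over the 18 libraries (colour scale, log2 units), with CCl4_PTH, CCl4 and control libraries from left to right. The column of CCl4_PTH 1 is the lowest of its group in 9 of 10 genes, and CCl4 4 is the lowest CCl4 column in 10 of 10 (in 4 of 10 by library size alone). In the Aldh1b1 row the control columns are below all injected ones.

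Marker lists of several cell types differed between the groups. Of all genes, 26.3% were called higher and 21.2% lower in CCl4 than in control livers. Between CCl4_PTH and CCl4 livers, 7.1% of all genes were called higher and 4.95% lower. Hepatocyte markers were lower in CCl4 than in control livers in 5 of 9 genes and higher in 0, with summed levels of 24418 to 58478 CPM in CCl4 and 51862 to 65955 CPM in control livers. Pericentral markers were lower in 8 of 10, with sums of 347 to 1001 CPM in CCl4 and 4803 to 8345 CPM in control livers, and periportal markers in 1 of 10 (4052 to 8343 CPM in CCl4 and 6088 to 9074 CPM in control livers). Stellate cell and fibroblast markers were higher in 8 of 10 genes (sums of 544 to 953 CPM in CCl4 and 261 to 328 CPM in control livers), and macrophage markers in 8 of 10 (450 to 1022 CPM in CCl4 and 128 to 186 CPM in control livers). Neutrophil markers were higher in 9 of 9 tested (74.6 to 619 CPM in CCl4 and 2.61 to 5.45 CPM in control livers), where Mpo and Ly6g were at 0 in all control livers. Cholangiocyte markers were higher in 8 of 10 (105 to 188 CPM in CCl4 and 22.3 to 38.1 CPM in control livers), and B and plasma cell markers in 10 of 10 (37.6 to 83.0 CPM in CCl4 and 10.3 to 26.9 CPM in control livers). T and NK cell markers were higher in 9 of 10 (4.71 to 43.2 CPM in CCl4 and 2.01 to 5.24 CPM in control livers), and mesothelial markers in 9 of 10 (12.6 to 35.6 CPM in CCl4 and 1.73 to 11.47 CPM in control livers). Of the sinusoidal endothelial markers 2 of 10 were higher and 3 lower, and of the red blood cell markers 1 of 8 was lower. Between CCl4_PTH and CCl4 livers, pericentral markers were higher in 8 of 10 genes (1416 to 3583 CPM in CCl4_PTH and 347 to 1001 CPM in CCl4 livers). Hepatocyte markers were higher in 1 of 9 (39848 to 65262 CPM in CCl4_PTH and 24418 to 58478 CPM in CCl4 livers) and stellate markers in 0 of 10 (552 to 1055 CPM in CCl4_PTH and 544 to 953 CPM in CCl4 livers). Of the macrophage markers 1 was higher and 2 lower, of the endothelial 2 and 1, and of the cholangiocyte and neutrophil lists 0 were called. Against control, CCl4_PTH livers still had 9 of 10 stellate, 8 of 10 macrophage and 8 of 9 neutrophil markers higher, and 5 of 10 pericentral markers lower with 1 higher. The marker sums and calls all rest on TMM factors and were not repeated with library sizes alone. Library sizes alone moved the median of all genes for CCl4 over control from 0.05 to 0.63. A difference as small as that of the hepatocyte sums may therefore depend on the scaling. The part of any of these marker differences in the dehydrogenase results was not tested.

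Beyond the 10, the table held 18 other genes of the families, of which 14 were tested. In CCl4 against control 5 were higher and 6 lower, with a median log2 fold change of -0.43, where 26.3% of all genes were higher and 21.2% lower. The lower ones were all genes of more than 10 CPM, such as Aldh4a1 of proline breakdown (111 ± 46.0 CPM in CCl4 and 274 ± 35.5 CPM in control livers, SD, n = 6 each, log2 fold change -1.31 ± 0.27, adjusted p = 0.0005063) and Aldh7a1 of lysine breakdown (-0.94 ± 0.20, adjusted p = 0.0008474). Adh7 (-1.48 ± 0.31), Aldh5a1 (-1.02 ± 0.20), Aldh9a1 (-0.97 ± 0.17) and Adhfe1 (-0.68 ± 0.19) were lower too. The higher ones were scarce, such as Aldh18a1 of proline synthesis (7.23 ± 1.91 CPM in CCl4 and 0.988 ± 0.266 CPM in control livers, log2 fold change 2.86 ± 0.28, adjusted p = 2.883e-07) and Aldh1a2, a retinal dehydrogenase (3.72 ± 1.83 CPM in CCl4 and 0.0873 ± 0.126 CPM in control livers, 5.31 ± 0.73, adjusted p = 1.249e-05). Aldh1l2, the mitochondrial counterpart of Aldh1l1 (3.43 ± 0.73), and Aldh3b1 (1.99 ± 0.26) were higher as well. Aldh16a1 did not pass (-0.18 ± 0.13, adjusted p = 0.2779). With library sizes alone the median of this list was 0.11, where that of all genes was 0.63, Adhfe1 (-0.14) and Aldh7a1 (-0.39) did not pass, and Aldh16a1 was called higher (0.37, adjusted p = 0.03604), which made 6 higher and 4 lower.

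With PTH added to CCl4, 5 of these 14 were higher (Adhfe1, Aldh1a7, Aldh4a1, Aldh5a1 and Aldh7a1) and 2 were lower, Aldh18a1 (-1.03 ± 0.26, adjusted p = 0.0144) and Aldh3b1 (-0.82 ± 0.25, adjusted p = 0.03531). The median log2 fold change was 0.44, and 7.1% of all genes were higher and 4.95% lower. Aldh1a7 differed from its near copy Aldh1a1 in its calls: it had 118 ± 15.4 CPM in CCl4_PTH, 73.6 ± 14.5 CPM in CCl4 and 81.8 ± 20.6 CPM in control livers (SD, n = 6 each). Its log2 fold change was 0.68 ± 0.16 for CCl4_PTH over CCl4 (adjusted p = 0.009581), -0.15 ± 0.15 for CCl4 over control (adjusted p = 0.4485) and 0.53 ± 0.16 for CCl4_PTH over control (adjusted p = 0.01662). The difference between the 2 genes was not tested. Under library sizes alone the PTH values of Aldh1a7, Aldh5a1, Aldh7a1 and Aldh3b1 did not pass (adjusted p 0.05733 to 0.08828), and without controls 1 and 8 those of Aldh5a1 (0.0588) and Aldh7a1 (0.05211) did not. Without CCl4_PTH 1, Adh7 was called higher (1.05) and Aldh1l2 lower (-3.04). The count of 7 called genes in this list was 3 or 4 without CCl4 2, 4 or 7 or CCl4_PTH 2, 3, 6 or 7. In CCl4_PTH against control 5 of the 14 were higher and 1 was lower, with a median of -0.03, and by library size alone 7 were higher and 0 lower. Of all genes, 17.4% were higher and 10.3% lower in that comparison with TMM factors.

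The pathways on either side of the enzymes were described from lists of their other genes. Of all genes, 26.3% were higher and 21.2% lower in CCl4 than in control livers. With PTH over CCl4, 7.1% were higher and 4.95% lower. Among the 1630 genes with at least 50 CPM on average, 56.7% were lower after CCl4 and 28.9% higher with PTH. A list count near these shares is not particular to its pathway. Of 6 genes that feed or use ethanol and acetate, 5 were lower and 1 higher in CCl4 than in control livers (median -1.29). Cyp2e1, the P450 enzyme that oxidises ethanol and also activates CCl4, had 1834 ± 499 CPM in CCl4_PTH, 261 ± 208 CPM in CCl4 and 4524 ± 1144 CPM in control livers (SD, n = 6 each). Its log2 fold changes were 2.81 ± 0.41 for CCl4_PTH over CCl4 (adjusted p = 0.0005511) and -4.12 ± 0.43 for CCl4 over control (adjusted p = 6.894e-07). Acss2, the cytosolic enzyme that joins acetate to coenzyme A, was at 1.86 ± 0.46 for CCl4_PTH over CCl4 (adjusted p = 0.01546) and at -1.78 ± 0.46 for CCl4 over control (adjusted p = 0.003963), and its mitochondrial counterpart Acss1 was higher in CCl4 than in control livers (2.83 ± 0.32, adjusted p = 1.368e-06). Without controls 1 and 8 the value of Acss2 for CCl4 over control was -0.77 and did not pass (adjusted p = 0.06549). Of the 6, 4 were higher with PTH and 0 lower (median 0.92), and 2 were called without CCl4 2, 4 or 7 or CCl4_PTH 2, 3, 6, 7 or 8.

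Valine, thymine and propionate breakdown, the route of Aldh6a1, had genes called in 1 direction in each comparison. All 20 tested genes were lower in CCl4 than in control livers (median -0.86), and 16 were higher and 0 lower in CCl4_PTH than in CCl4 livers (median 0.65, against -0.03 over all genes), and 4 did not pass. Bckdha, a subunit of the branched-chain ketoacid dehydrogenase, had 78.5 ± 10.4 CPM in CCl4_PTH, 51.6 ± 15.6 CPM in CCl4 and 103 ± 4.06 CPM in control livers. Mut, the methylmalonyl-CoA mutase, had 95.2 ± 11.7 CPM in CCl4_PTH, 52.9 ± 14.2 CPM in CCl4 and 93.0 ± 8.13 CPM in control livers (SD, n = 6 each). Its log2 fold changes were 0.85 ± 0.15 with PTH over CCl4 (adjusted p = 0.001917) and -0.81 ± 0.15 for CCl4 over control (adjusted p = 0.0001545). With library sizes alone 8 of the 20 were lower after CCl4, not including Mut (-0.27), and 10 were higher with PTH, not including Bckdha (0.54). In CCl4_PTH against control 2 were lower and 18 did not pass. By library size alone 5 were higher there and 0 lower, and DESeq2 called 6 lower, so no direction is given for the list. The count of 2 was 1 without control 3, 4, 5 or 8 or CCl4_PTH 1, 2, 3 or 8, and 4 to 6 without CCl4 1, 4, 7 or 8.

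A list of 12 other genes covered tryptophan breakdown through kynurenine, where Aldh8a1 acts, and the synthesis of NAD. Of the 12, 9 were lower and 1 higher after CCl4 (median -0.77), and 7 were higher and 0 lower with PTH (median 0.63). Ido2, which opens the tryptophan ring, had 35.2 ± 6.46 CPM in CCl4_PTH, 13.0 ± 4.80 CPM in CCl4 and 37.7 ± 10.6 CPM in control livers (SD, n = 6 each). Its log2 fold changes were 1.44 ± 0.23 (adjusted p = 0.001148) with PTH over CCl4 and -1.53 ± 0.23 (adjusted p = 2.625e-05) for CCl4 over control. Haao, which makes the precursor of quinolinate, was at 1.18 ± 0.25 with PTH over CCl4 and at -1.49 ± 0.25 for CCl4 over control, and Kmo at 0.58 ± 0.14 and -0.92 ± 0.14 in these comparisons. With library sizes alone the counts were 4 lower and 2 higher after CCl4, and 3 higher with PTH, and Kmo passed in neither (adjusted p 0.05621 and 0.07152).

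Folate, retinoid and fatty aldehyde genes were mixed. Of 25 folate genes, 12 were lower and 6 higher in CCl4 than in control livers (median -0.39), including Dmgdh (-1.21 ± 0.20) and the folate transporter Slc46a1 (-1.22 ± 0.19) below and mitochondrial Mthfd1l (1.86 ± 0.29) above. With PTH over CCl4, 5 were higher and 0 lower, a count of higher genes that was 2 without CCl4 4, 3 without CCl4 2 or 7 or CCl4_PTH 2, 3, 6 or 7, 8 without CCl4 8 and 12 without CCl4 1. Without CCl4_PTH 1, 10 folate genes were higher and 3 lower. Of 20 retinoid genes, 8 were lower and 5 higher after CCl4 (median -0.44), among them the retinol dehydrogenase Rdh7 (-1.55 ± 0.16) and Dhrs9 (3.85 ± 0.42), and 4 were higher and 1, Bco1, lower with PTH. Without CCl4_PTH 1, 8 retinoid genes were called in place of 5. Of 10 genes that supply or clear fatty aldehydes and alcohols, 5 were lower and 2 higher after CCl4 (median -0.75), such as Cyp4f15 (-1.34 ± 0.22) and Far1, a fatty acyl-CoA reductase (2.09 ± 0.22), and 4 were higher with PTH. With library sizes alone the split for CCl4 over control turned round in the folate list, to 10 higher and 3 lower (median 0.20). It was 6 higher and 5 lower in the retinoid list (median 0.08), and 3 higher and 3 lower among the fatty aldehyde genes, of which 2 were higher with PTH.

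The other carbonyl-metabolising enzymes did not move in 1 direction: of 14, 7 were higher and 7 lower after CCl4, and 3 were higher and 5 lower with PTH. By library size alone 8 were higher and 2 lower after CCl4, and 1 was higher and 4 lower with PTH. Aox3, an aldehyde oxidase, had 327 ± 141 CPM in CCl4_PTH, 120 ± 46.7 CPM in CCl4 and 654 ± 49.5 CPM in control livers (SD, n = 6 each). Its log2 fold changes were 1.45 ± 0.33 (adjusted p = 0.009179) with PTH over CCl4 and -2.45 ± 0.34 (adjusted p = 1.303e-05) for CCl4 over control. The aldose reductases Akr1b3 and Akr1b10 went the other way, at -0.67 ± 0.19 and -0.93 ± 0.22 with PTH over CCl4 and at 2.08 ± 0.20 and 1.82 ± 0.23 for CCl4 over control. Under library sizes alone the PTH value of Akr1b3 did not pass (adjusted p = 0.08388). The count of 8 genes called with PTH was 4 without CCl4 4, CCl4 7, CCl4_PTH 6 or CCl4_PTH 7.

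**Figure D5:**
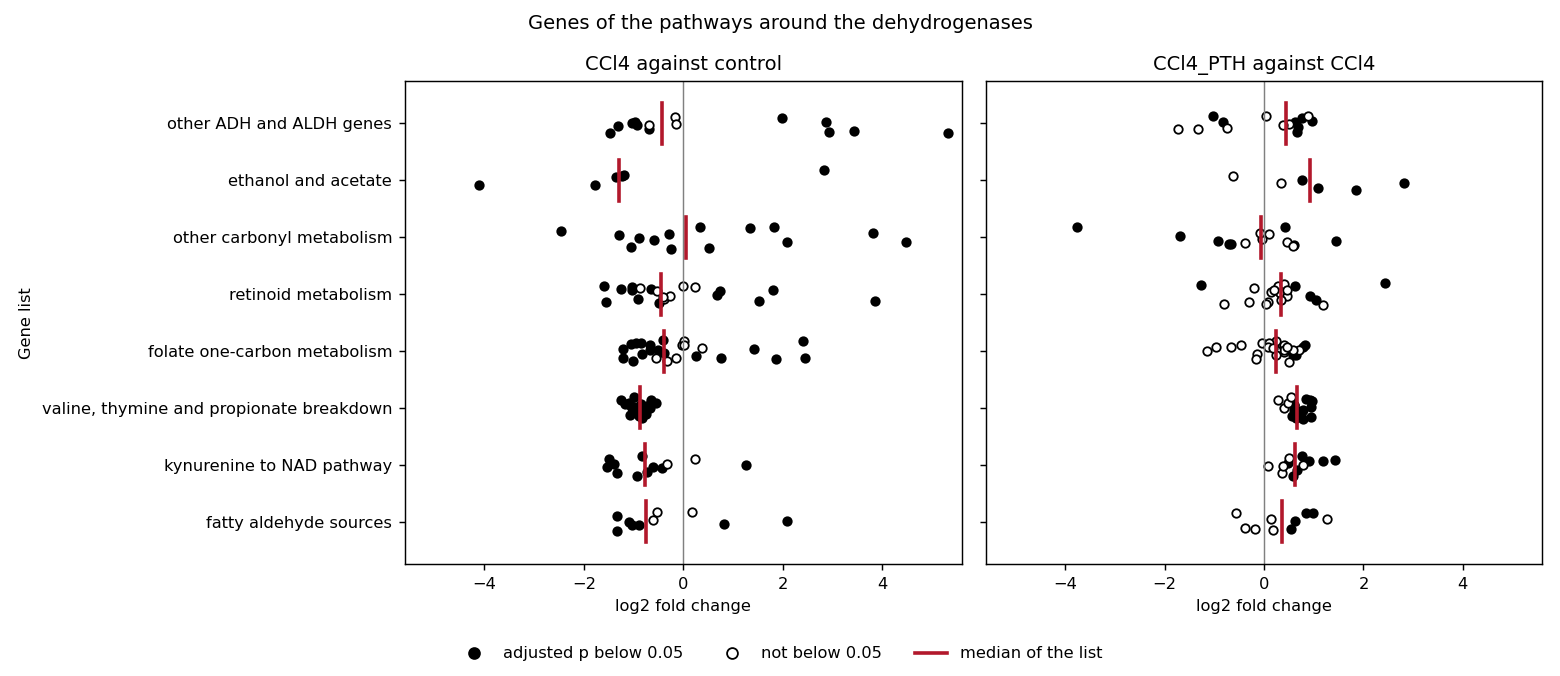
Log2 fold change (horizontal axes) of each tested gene of 8 lists around the dehydrogenases, for CCl4 against control on the left and CCl4_PTH against CCl4 on the right, with filled points for adjusted p below 0.05 and a red bar at the median of each list. The 20 genes of valine, thymine and propionate breakdown all lie below 0 on the left, and 16 of them are filled above 0 on the right, while folate, retinoid and other carbonyl genes lie on both sides.

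Genes with the most similar pattern over the 18 libraries were found by the root mean square difference of log2 CPM, each gene centred on its own mean, among 6450 genes with at least 10 CPM on average. The smallest difference from a gene of the 10 was 0.0962 log2 units, between Aldh6a1 and Adi1, followed by 0.103 for Aldh8a1 and Slc19a2, 0.111 for Adh5 and Echs1, and 0.123 for Aldh2 and Ptms. Adh1 was nearest to Ociad2 (0.146), Aldh1a1 to Akr1c13 (0.172), Adh4 to Ghr (0.175) and Aldh1l1 to Neb (0.229). Aldh3a2 had no neighbour as close as these, at 0.392 for Rnf152, beside a spread of its own level of 1.07 log2 units. The distance is a description of these libraries and has no test.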

How the data were processed

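Liver RNA of 18 mice was measured, 6 per group. Per the labels' protocols, ribosomal RNA was removed and 150-base paired reads were made. Per the submitters' processing notes, the build was GRCm38 and the tools included HISAT2 2.2.1, Bowtie2 2.5.1, StringTie 2.1.5, FastQC 0.11.9 and cutadapt 4.2, with no role given. The counter, annotation and use of strand are not given in the sources used here, so reads of overlapping genes may be mixed. The authors deposited estimated counts per gene, not normalised, for 54752 genes, and rounding them to whole numbers changed 0 values. Of these, 54723 identifiers matched GENCODE M21, which gave positions and exon lengths, and 29 did not.

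All 3 comparisons came from one edgeR 4.0.16 fit in R 4.3.3 (TMM factors, filterByExpr with minimum count 10, 21840 genes, robust quasi-likelihood F test, no block), with Benjamini-Hochberg adjustment over all genes and a limit of 0.05, which every gene called, higher or lower passed. SE was taken as the log2 fold change over the root of F. CPM per kb divides CPM by the length of the merged exons. Log2 CPM used a prior count of 2. The fit was tested on simulated counts. Many of the genes given a small change there, and some of those given a large one, were not called, so a gene that did not pass may still differ. Replicate numbers were not used as pairs. In deviations from group means, the 13 same-numbered pairs had correlations of -0.209 to 0.0833, none above the limit of 0.1, and pairs of other numbers -0.2405 to 0.2572. Whether equal numbers share a cage or day is not given by the labels, and these correlations cannot decide it. No 2 libraries of a group agreed within sampling noise, and the labels do not say how mice were caged, so p-values cover the spread among these mice. Alternatives were RLE factors, library sizes alone, DESeq2 1.42.0, voom with quality weights (limma 3.58.1), no filter, no ribosomal loci, 2 groups only, no robust option, a replicate block, no controls 1 and 8, and each library left out.

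The 10 genes and the lists were chosen with earlier results of these data known. By rule the text names the 10 genes, the other family genes of at least 1 CPM, Cyp2e1, Alb, the nearest gene of each of the 10 (that of Aldh1b1 is not reported here), and genes among the 2 smallest p of each list in CCl4 against control and in CCl4_PTH against CCl4. The small and circular RNA libraries of the study were not analysed here.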

Additional observations from a re-analysis of the deposited data

Results flagged for a closer look

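A library was far from the rest of its group in 4 of the 30 sets of 6 libraries formed by 10 genes and 3 groups, by Dixon's gap test at the 95% level, which chance meets in about 1 of 20 sets. Of the 4, 3 concern CCl4_PTH 1. It had 203 CPM of Adh1 where the next library of its group had 622, 247 CPM of Aldh1a1 where the next had 529, and 52.0 CPM of Aldh3a2 where the next had 165. The other is CCl4 1, which had 132 CPM of Aldh3a2 where the next CCl4 library had 84.2.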

How the results depend on the processing

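Counts of the 10 genes called were 9 to 10 (CCl4 against control), 5 to 8 (CCl4_PTH against CCl4, main 7) and 2 to 4 (CCl4_PTH against control, main 3) when each library was left out in turn. In CCl4_PTH against control, voom with quality weights called 5 of the 10, and a fit of the 2 groups alone called 5. The replicate block, whose numbers are not known to pair the libraries, gave 0 of the 10, 84 of all genes (main 2632) and 2 of the pathway list genes (main 56) for CCl4_PTH against CCl4. It gave 1 of the 10 and 3343 of all genes (main 6051) for CCl4_PTH against control. For CCl4_PTH against CCl4, all genes called numbered 4167 with voom and 1509 to 3854 with each library left out, with 1523 without CCl4 4, 1598 without CCl4 7, 1704 without CCl4_PTH 6 and 1509 without CCl4_PTH 7.

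Library sizes alone, without TMM factors, moved the median of all genes to 0.63, -0.13 and 0.51 in the 3 comparisons, in the order used above. All genes called were then 11275 higher and 1061 lower (main 5735 and 4627), 1097 in all with 476 higher and 621 lower (main 1551 and 1081), and 9912 in all with 9559 higher and 353 lower (main 3798 and 2253), and the pathway list genes called in CCl4_PTH against CCl4 were 34. Calls of CCl4 against control ended for Adh1, Aldh1a1 and Aldh1l1 (-0.28), and of CCl4_PTH against CCl4 for Adh5 (0.60, adjusted p = 0.0549) and Aldh2 (0.61, adjusted p = 0.05106). Signs of values that did not pass turned round in CCl4_PTH against control for Adh1 (0.0887), Adh4 (0.25), Adh5 (0.15), Aldh1a1 (0.0373), Aldh6a1 (0.28) and Aldh8a1 (0.11), and in CCl4_PTH against CCl4 for Aldh1b1 (-0.0404). Aldh2 in CCl4_PTH against control was then -0.03 (adjusted p = 0.886), and Aldh1l1 was called (0.72, adjusted p = 0.04439). The Aldh1b1 value in CCl4_PTH against CCl4 ran from -0.0831 to 0.268 with each library left out. The cause of these shifts was not tested. The lowest count of the 10 genes in a library was 408.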
